A study of Mus musculus with 4 samples.

Results

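The genes described here are 10 genes of the hypoxia-inducible factor (Hif) pathway: the transcription factor gene Hif1a, the oxygen sensor genes Egln1 and Egln3, and Bnip3, Bnip3l, Ankrd37, P4ha1, P4ha2, Vegfa and Ddit4, all known as Hif target genes outside glycolysis. They were taken from a table of 19938 measured genes on 4 one-colour Affymetrix arrays, through the rows whose platform annotation gave exactly 1 of these symbols. All 10 were found, in 12 rows, since Bnip3 and Bnip3l had 2 rows each. The row of each gene was selected by its brightness, the highest mean signal over the 4 arrays. The gene list itself was put together with results of these data known, so the differences and calls below describe these genes and are not independent evidence for the group.

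The RNA came from E14, an established line of mouse embryonic stem cells. Of the 4 arrays, 2 carried RNA of control cells, infected with a lentivirus for an shRNA against Luc, and 2 carried RNA of cells infected with a lentivirus for an shRNA against Usp22, the deubiquitinating enzyme of the SAGA coactivator complex. Both groups grew without feeder cells on gelatin in DMEM with 20% defined FBS, LIF and the pair of inhibitors known as 2i, PD0325901 against MEK (1 µM) and CH99021 against GSK3 (3 µM). Each group therefore also carries a viral infection, and the depletion rests on an shRNA whose sequence and number are not given in the labels. The labels give no oxygen level, no infection time and no separate cultures for the replicates, so the p-values below cover only the array-to-array spread, which may be technical. In bulk RNA, fewer cells with a transcript and less of it per cell cannot be told apart.

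Hif is a dimer of an oxygen-labile alpha subunit, such as the product of Hif1a, and a stable partner, Arnt. In the presence of oxygen, the prolyl hydroxylases encoded by Egln1, Egln2 and Egln3 mark the alpha subunit, the Vhl ubiquitin ligase binds the mark, and the proteasome removes the protein. When oxygen or a cofactor of these enzymes is short, the alpha subunit stays, enters the nucleus and binds the hypoxia response element, a short sequence with the core letters ACGTG or GCGTG. Much of the control of Hif1a thus lies at the protein level, which an expression array does not measure, while the mRNA of its targets can be read. Egln1 and Egln3 are targets as well as sensors, which closes a feedback loop.

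Usp22 was the check of the labels. Its normalized log2 signal stood at 9.41 and 9.36 in control cells, against 8.23 and 8.29 in depleted cells, a 2.17-fold lower level (log2 difference −1.12, SE 0.27, limma adjusted p = 0.00826). Control replicate 2 stood apart from the other arrays. Its Pearson correlation with them over genes, which are not independent replicates, ran from 0.877 to 0.941, and on the first principal component, with 75.1% of the variance, it lay at −55.5 while the others ran from −3.30 to 37.0. Results below are therefore also given without it. Control replicate 1 correlated more with the depleted arrays (0.951 and 0.974) than with control replicate 2 (0.941), so the 2 controls did not group together. All 10 stem cell markers examined were above the receptor background, and limma called 0 of them. At an unadjusted p under 0.05, limma had 1 higher and 1 lower, where 3078 and 1322 of all 19938 genes were. The summed log2 signal of these markers was 101.5 to 102.2 per array, a sum over genes that lay apart in direction. Without overlap 4 were higher and 4 lower (27.4% and 33.3% of all genes), from −0.64 for Klf4 to 0.59 for Sox2. The receptor background is the 95th percentile of the mean signal of 1194 olfactory and vomeronasal receptor genes, 6.99 on the log2 scale. Of the fibroblast markers 4 of 10 lay above it (Col1a1, Col1a2, Col3a1 and Thy1, while Dcn, Lum and Pdgfrb were among those under it), of the endoderm markers 3 of 8 and of the endothelial and blood markers 0 of 7. The summed fibroblast signal was 66.5 and 69.9 in controls and 66.4 and 65.9 in depleted cells, and the summed endoderm signal 53.5 and 55.5 against 51.6 and 52.4. Both were highest on control replicate 2, where the Hif pathway genes were lowest, and their part in the differences was not tested.

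The promoters of the genes were read from RefSeq (GRCm38.p6), from 250 bases before to 50 bases after each annotated start. The table held 10 such windows for 9 of the 10 genes, with 2 starts for Vegfa. The promoters of the 4 genes called higher, Bnip3, Egln3, Ankrd37 and P4ha1, are shown because these genes were called in the same direction, and that of P4ha2, the paralog of P4ha1, because it was not called. Sequences run 5′ to 3′ on the gene's strand, and capitals mark ACGTG or GCGTG on either strand (CACGT and CACGC on the printed strand). They lie at chr7:138909457-138909756 (minus strand) for Bnip3, chr12:54203825-54204124 (minus) for Egln3, chr8:45999801-46000100 (minus) for Ankrd37, chr10:59323046-59323345 (plus) for P4ha1 and chr11:54100674-54100973 (plus) for P4ha2.
Bnip3: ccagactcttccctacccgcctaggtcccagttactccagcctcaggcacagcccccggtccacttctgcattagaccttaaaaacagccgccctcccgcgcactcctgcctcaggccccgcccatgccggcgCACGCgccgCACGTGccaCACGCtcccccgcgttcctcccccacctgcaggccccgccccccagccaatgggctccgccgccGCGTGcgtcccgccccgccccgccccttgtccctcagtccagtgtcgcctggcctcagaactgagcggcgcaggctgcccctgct
Egln3: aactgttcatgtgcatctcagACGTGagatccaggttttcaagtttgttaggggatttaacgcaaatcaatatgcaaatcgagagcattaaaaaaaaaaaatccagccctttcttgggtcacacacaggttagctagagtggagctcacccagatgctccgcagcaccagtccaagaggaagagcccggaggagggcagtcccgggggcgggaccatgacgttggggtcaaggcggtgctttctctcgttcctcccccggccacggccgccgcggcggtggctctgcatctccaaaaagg
Ankrd37: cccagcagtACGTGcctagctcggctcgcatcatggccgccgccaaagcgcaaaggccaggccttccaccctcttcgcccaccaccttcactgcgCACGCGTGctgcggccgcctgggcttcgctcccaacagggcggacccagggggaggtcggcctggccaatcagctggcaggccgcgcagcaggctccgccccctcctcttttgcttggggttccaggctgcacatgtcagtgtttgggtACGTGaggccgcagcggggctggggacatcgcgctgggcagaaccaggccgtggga
P4ha1: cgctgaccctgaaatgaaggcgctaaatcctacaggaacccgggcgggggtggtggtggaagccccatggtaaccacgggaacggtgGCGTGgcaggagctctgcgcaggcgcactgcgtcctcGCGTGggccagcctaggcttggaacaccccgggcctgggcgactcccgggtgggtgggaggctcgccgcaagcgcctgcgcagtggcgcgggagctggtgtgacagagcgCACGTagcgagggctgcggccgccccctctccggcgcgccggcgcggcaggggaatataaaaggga
P4ha2: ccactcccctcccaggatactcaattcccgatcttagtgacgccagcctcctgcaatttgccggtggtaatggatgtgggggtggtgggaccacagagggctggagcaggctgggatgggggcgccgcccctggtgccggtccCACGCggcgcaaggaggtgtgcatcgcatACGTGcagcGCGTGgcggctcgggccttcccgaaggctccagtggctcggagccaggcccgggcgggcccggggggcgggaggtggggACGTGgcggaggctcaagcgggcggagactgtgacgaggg

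The Bnip3 window held 5 matches, of which 2 are the 2 strands of 1 palindrome (CACGTG). Ankrd37 held 4, of which 2 overlap as the 2 strands of 1 palindrome (CACGCGTG). P4ha1 held 3 and Egln3 held 1, while P4ha2, which was not called, held 4. The windows of Hif1a held 3 (again with 1 palindrome read on both strands), of Egln1 and Ddit4 2 each, and of Vegfa 0 at one start and 2 at the other. The Vegfa window with 2 matches (chr17:46025114-46025413, minus strand) lies downstream of the one with 0 (chr17:46032328-46032627). Its matches are thus not upstream of the first annotated start. In all, 9 of the 10 windows held at least 1 match, against 43.8% of the 32851 windows in the table. The windows of these genes were also rich in CG, with a median of 25.5 CG dinucleotides against 7.0 over the table. The lowest count was 10, in the downstream window of Vegfa. Among the 14281 windows of the table with at least that many, 68.4% held a match, a comparison chosen after the counts were seen. ACGTG alone was found in 9 of the 10 windows, in 19.6% of all windows and in 28% of the CG-rich ones. GCGTG alone was found in 7 of the 10, in 32.4% of all and in 56.6% of the CG-rich ones. A match of 5 letters is a description of the sequence and not a binding site, and the number of matches did not separate the called genes from the others. P4ha1 and Ddit4 start 628 kb apart on chromosome 10.

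**Figure D1:**
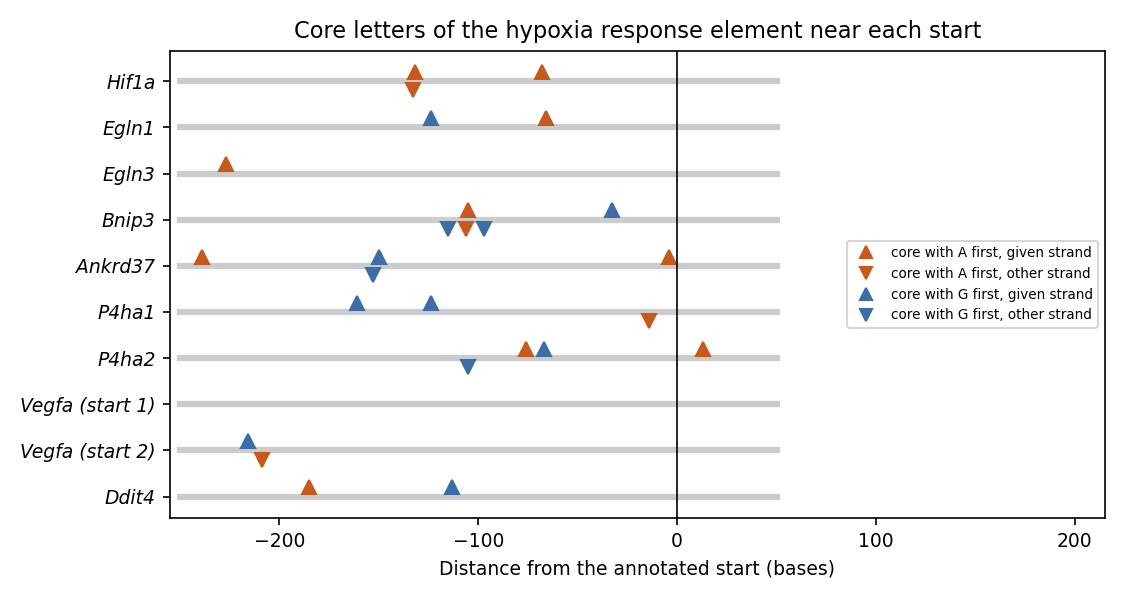
Position of the hypoxia response element core letters in the promoter windows of 9 genes, as distance in bases from the annotated start on the horizontal axis and 1 line per window. Triangles pointing up lie on the gene's strand and those pointing down on the other, orange for the core that begins with A and blue for the core that begins with G. All windows except the one at start 1 of Vegfa hold at least 1 match.

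Of the 10 genes, 4 rose after Usp22 depletion and 0 fell (limma adjusted p under 0.05 over all genes), where 2.62% of all genes rose and 0.105% fell. Of the 9736 genes above the receptor background, which leave out Egln3, 1.81% rose in this fit, and 6.89% when these genes were fitted alone. The genes that rose were Bnip3, Egln3, Ankrd37 and P4ha1. The other sensor and target genes Egln1, Vegfa and Ddit4 and the factor gene Hif1a had log2 differences between 0.48 and 0.61 and did not pass, and Bnip3l (0.22) and P4ha2 (−0.06) had the smallest differences. Signals of the groups did not overlap for 9 of the 10 genes, all in the higher direction, where 27.4% of all genes were higher and 33.3% lower without overlap. The median log2 difference (depleted minus control) was 0.60 over the 10 genes and −0.12 over all genes. Because the members were chosen with such values known, these counts describe the list and nothing is read from their size.

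**Figure D2:**
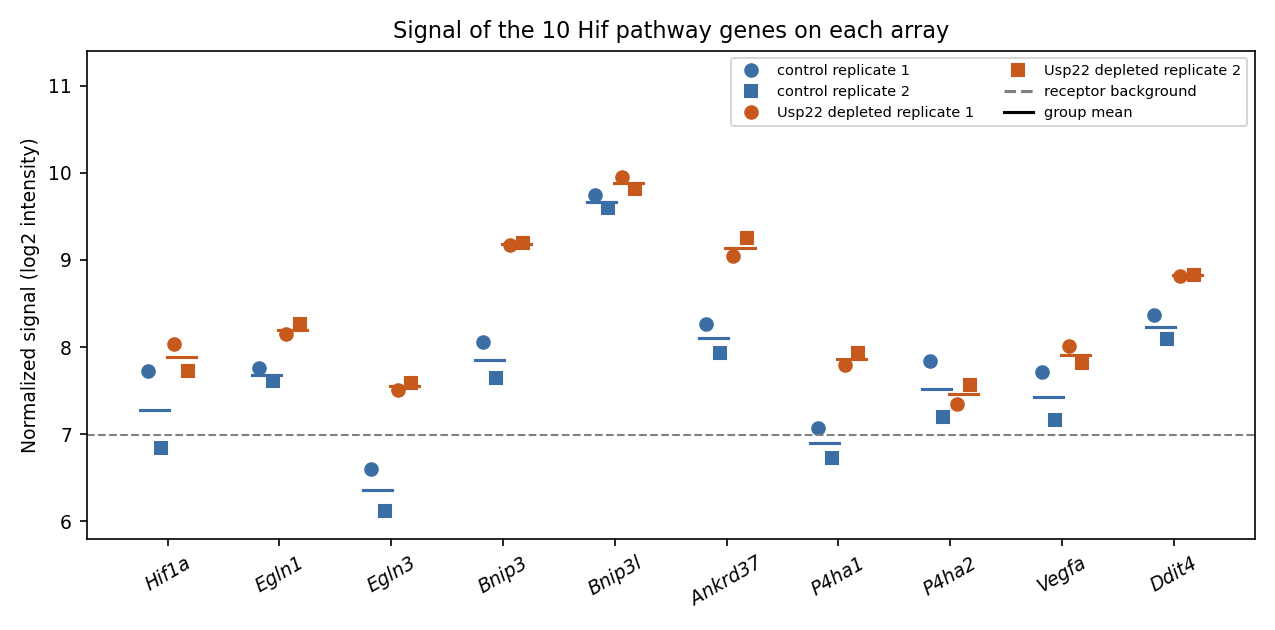
Normalized log2 intensity of the 10 genes on each of the 4 arrays (blue, control; orange, Usp22 depleted; circles, replicate 1; squares, replicate 2; short lines, group means; dashed line, receptor background at 6.99). Both depleted arrays lie above both control arrays for every gene but P4ha2, by 1.11 for Bnip3 and by 0.02 for Hif1a, and control replicate 2 is the lowest of the 4 arrays for all 10 genes.

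Hif1a encodes the oxygen-labile subunit of the factor. It had log2 signals of 7.72 and 6.84 in control cells, against 8.04 and 7.73 in depleted cells. Control replicate 1 and depleted replicate 2 were nearly level, 0.02 apart, and control replicate 2 stood alone at the low end. The group means were 7.28 ± 0.62 and 7.89 ± 0.22 (SD, n = 2 each). The log2 difference was 0.61 (SE 0.27, limma adjusted p = 0.168), moving to 0.17 when control replicate 2 was left out. Leaving out control replicate 1 instead gave 1.05, and the gene passed (limma adjusted p = 8.48e-04). Of all genes, 11.2% had a difference at least as high. The SD of the controls was thus as large as the difference between the groups. A change of Hif1a mRNA was not detected with these arrays. The fit gave every gene the same SE, so this SD did not decide the call.

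The sensors were Egln1, encoding the prolyl hydroxylase known as the main regulator of Hif turnover in normal oxygen, and Egln3, encoding a relative that is known for its strong induction by Hif. Egln3 read 6.60 and 6.12 in control cells, against 7.51 and 7.59 in depleted cells, with no overlap and a gap of 0.90 between the nearest arrays. Its means were 6.36 ± 0.34 and 7.55 ± 0.059 (SD, n = 2 each), a 2.28-fold higher level (log2 difference 1.19, SE 0.27, limma adjusted p = 0.00467). Both control values lay under the receptor background and both depleted values above it, so the control level was not resolved from that background. With the controls set at the background the level was at least 1.47-fold higher (0.56 on the log2 scale). Without control replicate 2 the difference was 0.95 and the call remained (limma adjusted p = 0.0456). Its mean over the 4 arrays, 6.96, was just under the receptor background, and with only genes above it in the fit Egln3 was not tested.

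Egln1 read 7.76 and 7.61 in control cells, against 8.15 and 8.26 in depleted cells. The arrays of a group lay close together, at 7.68 ± 0.11 and 8.20 ± 0.084 (SD, n = 2 each), and the groups did not overlap. The difference of 0.52 did not pass (SE 0.27, limma adjusted p = 0.229), and it moved only between 0.45 and 0.60 when 1 array was left out. It passed without control replicate 1 (limma adjusted p = 0.0313), a setting in which 4884 genes of the whole table were called higher. Whether Egln3 differed more than Egln1 was not tested.

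Bnip3 encodes a receptor on the mitochondrial outer membrane that draws mitochondria into autophagosomes, and Bnip3l (Nix) encodes its closest relative, known for the clearance of mitochondria in maturing red cells. Bnip3 read 8.06 and 7.65 in control cells, against 9.17 and 9.19 in depleted cells. The depleted arrays agreed to 0.016 (SD, n = 2) around 9.18, the controls were 7.85 ± 0.29, and the level was 2.51-fold higher (log2 difference 1.33, SE 0.27, limma adjusted p = 8.74e-04). On the linear scale of the deposited intensities the values were 268 and 202 in controls and 590 and 602 in depleted cells. This was the 14th highest difference of all genes and the 3rd among those above the receptor background. Without control replicate 2 it was 1.12 and stayed past the threshold (limma adjusted p = 0.0120).

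The other row of Bnip3, annotated with the same transcripts, had a mean log2 signal of 8.22 against 8.52 for the row used. It read 7.78 and 7.62 in control cells, against 8.71 and 8.78 in depleted cells, a difference of 1.05, and with this row in its place Bnip3 was also called. Both rows of Bnip3 were thus higher on both depleted arrays. Whether either row also detects a copy of the gene elsewhere in the genome is not given in the annotation.

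Bnip3l was not called. It read 9.74 and 9.59 in control cells, against 9.95 and 9.81 in depleted cells, 0.07 apart at the nearest, with means of 9.66 ± 0.11 and 9.88 ± 0.10 (SD, n = 2 each). The difference was 0.22 (SE 0.27, limma adjusted p = 0.575), and 32.2% of all genes had one at least as high. It was 0.14 without control replicate 2 and 0.44 after median centring, and passed in neither. Its other row, with a mean of 9.26 against 9.77, gave a difference of 0.32, and for Bnip3l too the annotation does not say whether a row also detects a copy elsewhere. The difference between the 2 paralogs' responses was not tested.

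Ankrd37 encodes a small ankyrin repeat protein and is known as a direct Hif target. It read 8.26 and 7.93 in control cells, against 9.04 and 9.25 in depleted cells, a gap of 0.78. Both depleted arrays stood clear of both control arrays, with means of 8.10 ± 0.24 and 9.14 ± 0.15 (SD, n = 2 each). The level was 2.07-fold higher (log2 difference 1.05, SE 0.27, limma adjusted p = 0.0151). Without control replicate 2 the difference was 0.88 and the call was lost (limma adjusted p = 0.0701).

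P4ha1 and P4ha2 encode alternative catalytic subunits of collagen prolyl 4-hydroxylase, the enzyme that makes collagen chains able to form a stable triple helix. P4ha1 read 7.07 and 6.73 in control cells, against 7.80 and 7.93 in depleted cells, a gap of 0.73, with control replicate 2 and the control mean under the receptor background. Its means were 6.90 ± 0.24 and 7.86 ± 0.089 (SD, n = 2 each), a 1.95-fold higher level (log2 difference 0.96, SE 0.27, limma adjusted p = 0.0273). With control replicate 2 set at that background the level was 1.78-fold higher (0.83 on the log2 scale). Without control replicate 2 the difference was 0.79 and the call was lost (limma adjusted p = 0.110). It was lost too on the deposited log2 values with no further scaling (0.89, limma adjusted p = 0.0933).

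P4ha2 was the only one of the 10 genes whose groups overlapped. It read 7.84 and 7.2 in control cells, against 7.35 and 7.57 in depleted cells, so that both depleted values fell between the control values. The means were 7.52 ± 0.45 and 7.46 ± 0.16 (SD, n = 2 each), and the difference of −0.06 (SE 0.27, limma adjusted p = 0.887) changed sign with the array left out and with the scaling, from −0.37 without control replicate 2 to 0.26 without control replicate 1. The paralogs thus had different outcomes in the test, but their difference was not itself tested.

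Vegfa encodes the growth factor that draws in blood vessels, and Ddit4 (Redd1) encodes an inhibitor of the growth kinase mTORC1 that other stresses besides low oxygen also induce. Vegfa read 7.71 and 7.16 in control cells, against 8.01 and 7.82 in depleted cells. The nearest arrays were 0.11 apart, less than the distance between the 2 controls, and the means were 7.43 ± 0.39 and 7.91 ± 0.13 (SD, n = 2 each). Its difference of 0.48 did not pass (SE 0.27, limma adjusted p = 0.258) and was 0.20 without control replicate 2. It was 0.75 without control replicate 1, where it passed (limma adjusted p = 0.00898).

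Ddit4 read 8.37 and 8.09 in control cells, against 8.82 and 8.83 in depleted cells. The depleted arrays were nearly equal and the gap to the nearest control was 0.46, with means of 8.23 ± 0.20 and 8.83 ± 0.00082 (SD, n = 2 each). The difference of 0.59 (1.51-fold, SE 0.27) did not pass (limma adjusted p = 0.179). Leaving out control replicate 2 gave 0.46. Leaving out control replicate 1 gave 0.73, and the gene passed (limma adjusted p = 0.0104).

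**Figure D3:**
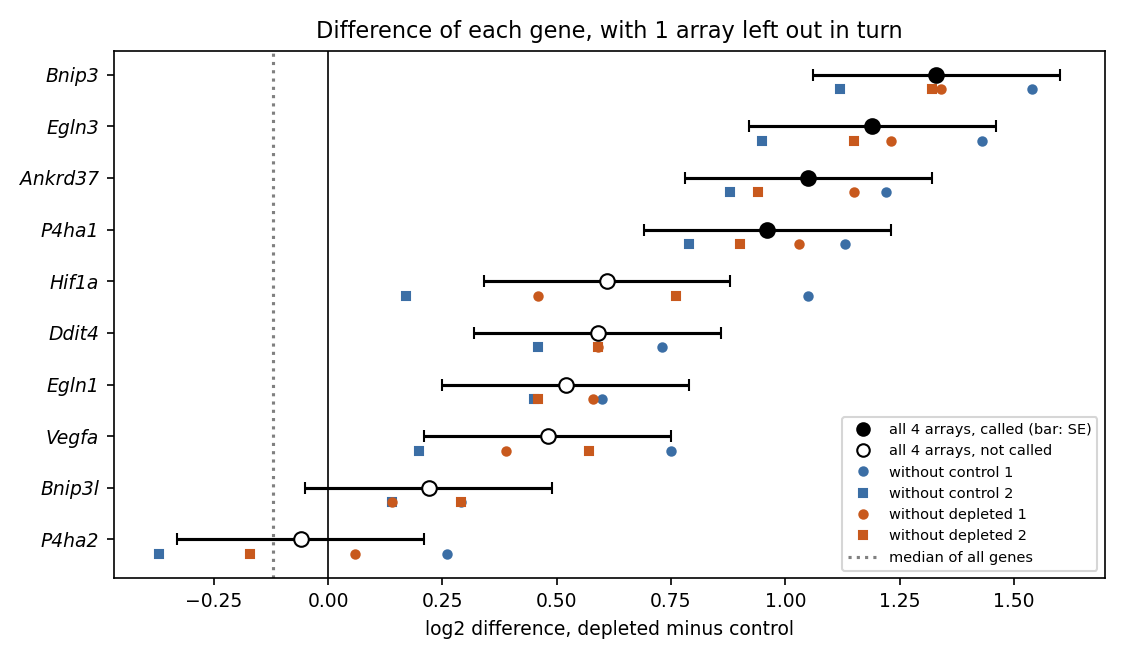
Log2 difference (depleted minus control) of each gene with its standard error of 0.27 (black; filled where the limma adjusted p was under 0.05), and below it the difference with each array left out in turn (small symbols). Filled points run from 0.96 to 1.33. Leaving out control replicate 2 gave the lowest or equal lowest value and leaving out control replicate 1 the highest or equal highest value for all 10 genes.

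Because the fit shared 1 variance among all genes, the standard error was 0.27 for each of them, and the smallest change called in any gene was 0.86. A change of the size seen for Hif1a, Ddit4, Egln1 or Vegfa could not be called here, whatever its own spread. Without either depleted array 0 of the 19938 genes were called higher, so that the 0 of 10 in those settings says nothing about these genes. Bnip3 had a difference of 1.34 without depleted replicate 1 and 1.32 without depleted replicate 2. Without control replicate 2, Bnip3 and Egln3 passed, where 66 genes of the whole table were called higher. Without control replicate 1, 8 of the 10 passed, where 4884 were.

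The differences of all genes were not centred in a single peak. Of the 9736 genes above the receptor background, 33.8% had a log2 difference over 0.3 and 36.2% one under −0.3, while 7.69% lay within 0.1 of 0. Hif1a, Ddit4, Egln1 and Vegfa lay among the many genes of the upper band, at places 1016, 1110, 1597 and 1905 from the top of the 9736. Bnip3, Ankrd37 and P4ha1 stood at places 3, 44 and 78, where P4ha1 was above the receptor background through control replicate 1 and the depleted arrays.

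**Figure D4:**
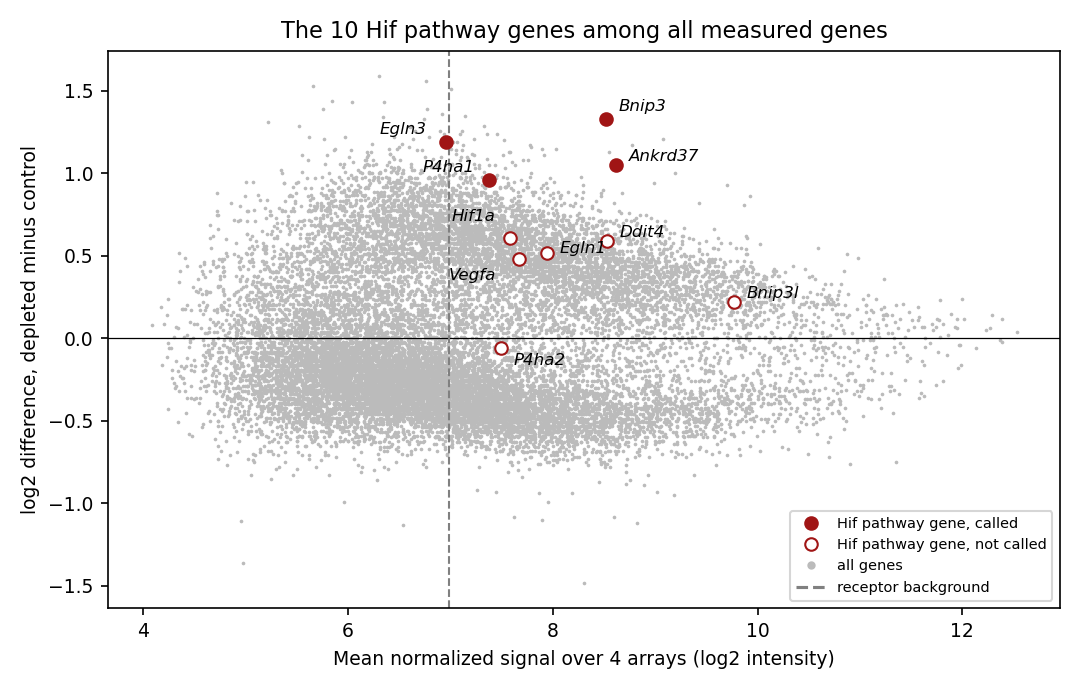
Log2 difference (depleted minus control) against the mean normalized log2 intensity over the 4 arrays, with 1 grey point per gene for all 19938 genes and the 10 Hif pathway genes in red (filled where called). The grey points form an upper and a lower band. Bnip3 (1.33) and Ankrd37 (1.05) lie above the upper band at their intensity, while Hif1a (0.61), Egln1 (0.52), Vegfa (0.48) and Ddit4 (0.59) lie within it and Bnip3l (0.22) lies under 0.3.

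Of the 9736 genes above the receptor background, receptor genes and genes with placeholder symbols (for example Gm or Rik names) were set aside. Among the 9289 left, the genes nearest to Bnip3 in their 4-array profile were sought by Euclidean distance, after each profile was centred on its own mean. They were the Wap-domain gene Wfdc15a (distance 0.14 on the log2 scale), the elastase gene Cela2a (0.16), the ubiquitin ligase gene G2e3 (0.19), the lactate exporter gene Slc16a3 (0.19) and Arhgef3 (0.20). Of the 10 genes, Ankrd37 was 21st (0.32) and P4ha1 41st (0.38) in the same order. Egln3 was nearest to Cela2a (0.088), the solute carrier gene Slc12a8 (0.10), Wfdc15a (0.11), Arhgef3 (0.13) and Ugcg, which encodes glucosylceramide synthase (0.15), with Bnip3 7th (0.16), Ankrd37 13th (0.20) and P4ha1 25th (0.25). Of the genes named here as nearest, Slc16a3 and Ugcg lay above the receptor background on all 4 arrays. Cela2a, G2e3, Arhgef3 and Slc12a8 were under it on both control arrays and Wfdc15a on 1, so that these genes entered the search through their depleted arrays and the filter favours such profiles. For Egln3, whose own control values lie under that background, the distances compare control values that were not resolved from it. The distances are a description only.

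Of 21 measured genes for other subunits, sensors, turnover factors and coactivators (22 listed), 0 rose and 0 fell with limma, and without overlap 7 were higher and 7 lower, shares close to the 27.4% and 33.3% of all genes. Their median log2 difference was −0.16, near that of all genes, and 0.04 after median centring of each array. The 4 with the lowest p were Arnt2, encoding a dimer partner of Hif (−0.62, limma adjusted p = 0.161), the clock factor gene Arntl (0.60, adjusted p = 0.176), Cul2, the scaffold of the Vhl ligase (0.58, adjusted p = 0.187), and Sart1, encoding a splicing and Hif-associated factor (−0.56, adjusted p = 0.199). At an unadjusted p under 0.05, limma had 2 of the 21 higher and 2 lower. Without control replicate 1, where 4884 genes of the whole table were called higher and 4236 lower, 4 of the 21 were called higher and 4 lower.

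Of 38 other non-glycolytic Hif targets measured (40 listed), 4 rose and 0 fell, where 2.62% of all genes rose and 0.105% fell. Without overlap 21 were higher and 8 lower, against 27.4% and 33.3% of all genes, and the median log2 difference was 0.34 (0.22 without control replicate 2). The 4 were Car12, encoding a membrane carbonic anhydrase, the histone demethylase gene Kdm4c, the cyclin gene Ccng2 and the collagen lysyl hydroxylase gene Plod2. Car12 read 5.65 and 4.94 in control cells, against 6.72 and 6.14 in depleted cells (difference 1.14, limma adjusted p = 0.00739), all under the receptor background and so not resolved from it. Kdm4c read 7.04 and 6.05 against 7.72 and 7.58 (difference 1.10, limma adjusted p = 0.00934, and 0.61 without control replicate 2, where it did not pass).

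Ccng2 read 5.65 and 5.59 against 6.80 and 6.60 (difference 1.08, limma adjusted p = 0.0117), also under the receptor background. It was the only one of these 4 that passed without control replicate 2 (difference 1.05, limma adjusted p = 0.0202). Plod2, whose enzyme acts on the same collagen chains as that of P4ha1, read 7.65 and 7.33 against 8.53 and 8.26 (difference 0.91, limma adjusted p = 0.0381), with all 4 values above the receptor background. The lowest of the 38 was Epo, the erythropoietin gene, at −0.58. On the deposited log2 values with no further scaling 2 of the 38 genes were called higher, where 75 of all genes were. After median centring 7 of the 38 were, where 927 of all genes were. With an intensity trend in the variance 8 of the 38 were, where 326 of all genes were. Without control replicate 1, 15 were called higher and 4 lower, where 4884 and 4236 of all 19938 genes were. Without control replicate 2 there was 1 call, where 66 of all genes were called higher, and without either depleted array 0, as over all genes.

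Among 19 measured glycolytic Hif targets (22 listed), 2 rose and 0 fell (2.62% and 0.105% of all genes), 11 were higher and 3 lower without overlap (27.4% and 33.3% of all genes), and the median log2 difference was 0.21, or 0.48 after median centring. Slc16a3, which encodes the lactate exporter Mct4, read 8.57 and 8.37 in control cells, against 9.64 and 9.72 in depleted cells (difference 1.21, limma adjusted p = 0.00350, and 1.11 without control replicate 2, where it passed). The aldolase gene Aldoc stood at 0.98 (limma adjusted p = 0.0251). Pfkfb3, which makes the activator of phosphofructokinase, stood at 0.80 (limma adjusted p = 0.0705), with its mean signal under the receptor background. Pdk1, encoding a kinase that inhibits pyruvate dehydrogenase, stood at 0.54 (limma adjusted p = 0.216). Slc16a3 thus stood beside Bnip3 in size, and the list as a whole was mixed, down to −0.41 for Pfkfb4. An intensity trend gave 4 higher and 1 lower among the 19, beside 326 and 286 among all genes. On the deposited log2 values 1 of the 19 was called higher and 0 lower, beside 75 and 10 among all genes. The median of the list moved to 0.40 when control replicate 1 was left out, with −0.15 for all genes. It moved to 0.16 when control replicate 2 was dropped instead, with −0.05 for all genes. Whether the non-glycolytic genes differed from the glycolytic ones was not tested.

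The next counts are for genes that share a function or a name with single members. With all 4 arrays and no other setting changed, 2.62% of all genes rose and 0.105% fell. Of 19 measured mitophagy genes (21 listed), 1 rose and 0 fell, with a median log2 difference of 0.13 (−0.01 without control replicate 2). With an intensity trend 1 was called higher and 3 lower, where 326 and 286 of all genes were. With robust settings as well the counts were 1 and 4, where 381 and 339 of all genes were called. After median centring 2 were higher and 0 lower, where 927 and 20 of all genes were. On the deposited log2 values 0 were called, where 75 of all genes were higher and 10 lower. The gene that rose was Fundc1, a mitophagy receptor gene that read 7.07 and 6.34 in control cells, against 7.78 and 7.60 in depleted cells (difference 0.98, limma adjusted p = 0.0249, and 0.61 without control replicate 2, where it did not pass). Bnip2 stood at 0.81 (adjusted p = 0.0676), the kinase gene Pink1 at 0.70 (adjusted p = 0.115) and the autophagy kinase gene Ulk1 at −0.58 (adjusted p = 0.187, limma). Pink1 lay under the receptor background on all 4 arrays.

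Of 8 further genes grouped with the collagen hydroxylases by function or name, limma called 0 in either direction. At an unadjusted p under 0.05 it had 1 higher and 0 lower, and the median log2 difference was 0.09. Crtap stood at 0.58, Plod3 at 0.45 and P3h1 at 0.43. P4htm, which shares the prolyl 4-hydroxylase name but is not a collagen enzyme, stood at −0.36, under the receptor background on all 4 arrays. Of 9 further VEGF ligand and receptor genes limma called 0 (also 0 at an unadjusted p under 0.05, median 0.08). Nrp2 stood at 0.43, Flt1 at −0.39 and Vegfb at 0.28, and 2 of the 9 lay above the receptor background. Kdr, the main VEGF receptor gene, stood at 0.23, or −0.23 without control replicate 2, under the receptor background on all 4 arrays. Of 16 genes of mTOR signalling and stress around Ddit4 limma called 0 (2 higher and 2 lower at an unadjusted p under 0.05, median −0.04). The stress sensor gene Sesn1 stood at 0.83 (limma adjusted p = 0.0595), with its mean signal under the receptor background. The stress gene Chac1 stood at −0.66, Tsc1 at 0.58 and Mtor at −0.54.

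**Figure D5:**
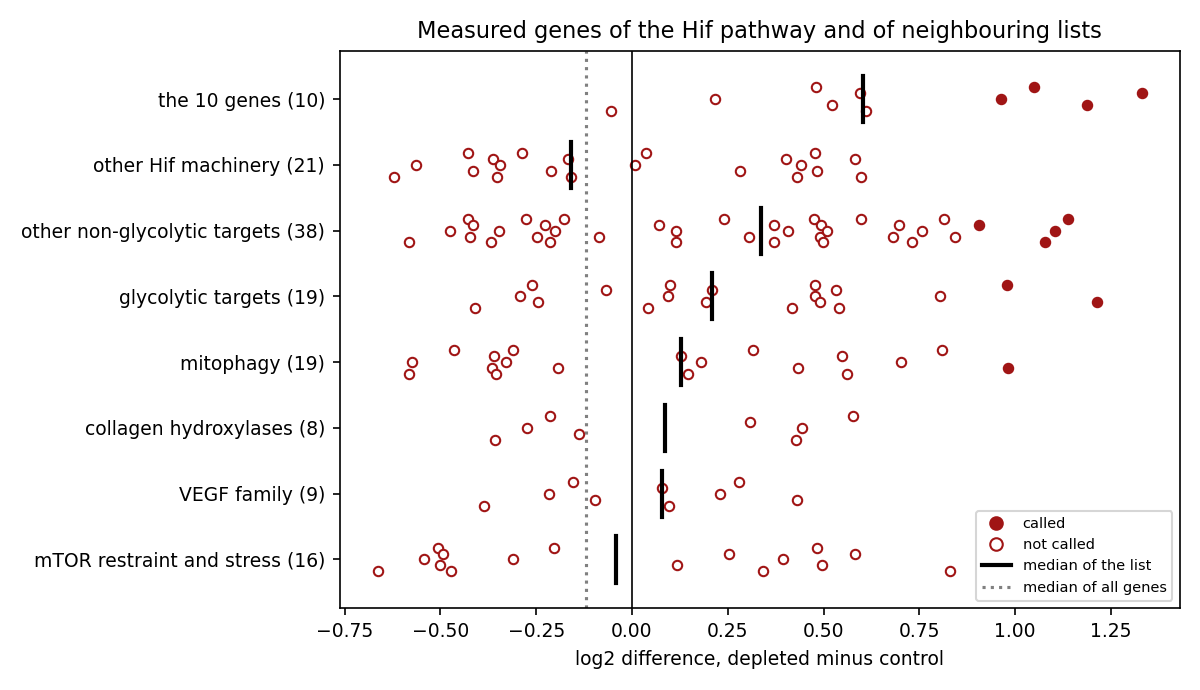
Log2 difference (depleted minus control) of every measured gene in the 10-gene list and in 7 other lists, with the number measured in brackets (filled, called; open, not called; black bar, median of the list; dotted line, median of all genes at −0.12). Called genes appear in 4 of the 8 lists, all to the right of 0.86, and the medians run from −0.16 for the other Hif machinery to 0.60 for the 10 genes.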

How the data were processed

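The values the authors deposited are linear intensities of 28856 probe sets on each array, from 16.0 to 6360 with array medians of 110 to 128. Per the labels' protocols, RNA was extracted with Trizol, cleaned on a column and measured as biotin-labelled cDNA. For summarisation, background correction and normalization before deposit, the method is not given in the sources used here. No pair of arrays was identical (0 pairs).

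For the fits, log2 of the deposited intensities was quantile-normalized across the arrays. Probe sets with 1 symbol (21789 of 28856, through GEO's annotation of the platform) were kept, with the brightest probe set for the 999 genes that had more, giving 19938 genes. All genes were fitted with limma 3.58.1 in R 4.3.3 (lmFit, eBayes, 2 groups, two-sided, Benjamini-Hochberg over all genes, threshold 0.05). Residual degrees of freedom were 2 per gene. With 1 variance shared among all genes, the p-values rest on more than these 2. With 2 arrays per group no exact permutation p can be under 0.333, so none is given. The number of arrays limits the precision. The fit was tested on simulated data with known changes.

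The 10 genes and the gene lists were chosen with earlier results of these data known. Named beside the 10 were Usp22, up to 4 genes per list with the lowest p, the 5 genes nearest to Bnip3 and to Egln3, and further genes named after their values were seen (Epo, Pfkfb4). Marker genes served to check the cell type. A control mean under the receptor background was also set at that background, array by array, for a bound. Alternatives were other scaling, row choice, filters, variance settings, a replicate block and each array left out. The other row of Bnip3 and Bnip3l and a fit above the receptor background were added after the data were seen. Scanner files and scan dates were not used here.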

Additional observations from a re-analysis of the deposited data

How the results depend on the processing

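Of the 10 genes, 4 were called higher with all 4 arrays, and from 0 (without either depleted array) to 8 (without control replicate 1) with 1 array left out. Their median log2 difference ran from 0.45 to 0.90 in those settings. The count was 3 on the deposited log2 values with no further scaling, where P4ha1 was not called, and 3 with only genes above the receptor background, where Egln3 was not tested. It was 4 with each other alternative, and 0 of the 10 fell in any. All genes had a median of −0.12, against −0.24 on the deposited log2 values and −0.09 after median centring. Relative to it, Bnip3 stood at 1.45, 1.59 and 1.59 and P4ha2 at 0.06, 0.10 and 0.10. P4ha2 (−0.37 without control replicate 2) changed sign to 0.004 with each array centred, 0.06 without depleted replicate 1 and 0.26 without control replicate 1. Kdr changed sign to −0.05 without depleted replicate 2 and −0.23 without control replicate 2, and stood at 0.69 without control replicate 1. The cause was not tested.

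Over all genes, 523 were called higher and 21 lower. The counts were 927 higher with each array centred, 75 and 10 on the deposited log2 values, 930 and 157 with 32 added before log2, 326 and 286 with an intensity trend, 295 and 11 with robust settings, and 339 lower with both. Lower calls were 36 and 148 with the dimmest 0.25 and the dimmer 0.5 of genes left out, and 149 above the receptor background, where 671 were higher. With 1 array left out they ran from 0 to 4884 higher and from 0 to 4236 lower. With the replicate number as a block, 856 were higher and 42 lower, and the same 4 of the 10 genes were called. Arrays of the same number deviated together only weakly (correlation over genes 0.10), and with 2 pairs the numbers are not taken to pair the arrays.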
